A study of Homo sapiens with 2 samples.

Results

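The regions described here are dense clusters of transcription start calls that lie away from the ends of genes in HUDEP-2 cells. A call is 1 base at which a transcript was called to begin, on the forward or the reverse strand. Calls on chromosomes 1 to 22 and X that lay more than 1000 bp from every outer end of any RefSeq gene were taken as distal, and distal calls less than 10 kb apart were joined. A joined group of 5 or more calls, on either strand, was kept as a cluster. Of 26395 deposited calls 6476 were distal, and these formed 3714 groups, of which 153 were clusters. The clusters held 957 calls, and the other 5519 distal calls stood alone or in groups of 2 to 4. The members were chosen by the measured positions of the calls, so that their number, size and spacing are given as a description.

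PRO-cap is a run-on assay of nascent RNA that reads the capped 5′ end of each new transcript. It therefore records starts at promoters and also at enhancers, whose short and unstable RNAs seldom appear in steady-state RNA. At both kinds of element RNA polymerase II usually starts in opposite directions from the edges of 1 open stretch of DNA, which gives a divergent pair of starts. Several such elements side by side form the clustered enhancers and alternative promoters known at genes of cell identity, and the locus control region of the beta-globin genes is the classic erythroid case.

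The series holds 1 group, wild-type HUDEP-2, an immortalised line of human erythroid progenitors, as 2 biological replicates with no treatment and no second genotype. Labelled nuclear RNA from run-on reactions was captured and sequenced, and the deposited lists give calls for the line with no value per replicate, no read count and no strength. The depth behind a call is unknown, no spread between replicates can be given, and intervals below are 95% Wilson intervals that cover counting error only. A called start of a gene is a call within 500 bp of either outer end of the gene that points into it, and 8207 of 19821 protein-coding genes (41.4%) had one. The strand of the gene was not used, so that an antisense call at its 3′ end also counts. Of the listed marker genes, 11 of 14 erythroid genes had a called start, against 1 of 5 megakaryocyte (ITGA2B), 1 of 6 granulocyte and monocyte (CEBPA) and 1 of 6 lymphoid genes (RAG1). HBA1, HBA2 and EPB42 were the erythroid markers without one. None of the 31 markers held or was nearest to a cluster, which is near the share over all protein-coding genes, 151 of 19821 (0.762%).

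Calls in 48 of the 153 clusters coincided with annotated starts of transcripts that begin inside their gene. Of these start windows 8, chosen after their values were seen, are shown. Each held both a sense and an antisense cluster call, as did others that are not shown. The windows are RefSeq sequence of GRCh38.p14, from 250 bases before to 50 bases after the transcript start, written 5′ to 3′ on the strand of the gene. Capitals mark the called base and the next base downstream on the strand of the call. The antisense call comes first in each window and is printed as its reverse complement. The TG of RUNX1 is thus CA on the strand of the call. RUNX1, IKZF1 and TFDP2 encode transcription factors or their partners in blood cells. RNF220 encodes a ubiquitin ligase, SLC39A10 a zinc importer, SLC3A2 the heavy chain of amino acid transporters, PRDM11 a member of the PR domain family and PTPRA a receptor tyrosine phosphatase.
RUNX1, chr21:34888650-34888949, reverse strand: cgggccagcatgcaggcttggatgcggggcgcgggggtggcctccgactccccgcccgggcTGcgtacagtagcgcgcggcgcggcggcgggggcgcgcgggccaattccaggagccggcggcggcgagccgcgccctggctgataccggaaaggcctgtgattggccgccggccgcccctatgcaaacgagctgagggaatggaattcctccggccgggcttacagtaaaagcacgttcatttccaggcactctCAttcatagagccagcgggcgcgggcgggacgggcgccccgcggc
IKZF1, chr7:50304466-50304765, forward strand: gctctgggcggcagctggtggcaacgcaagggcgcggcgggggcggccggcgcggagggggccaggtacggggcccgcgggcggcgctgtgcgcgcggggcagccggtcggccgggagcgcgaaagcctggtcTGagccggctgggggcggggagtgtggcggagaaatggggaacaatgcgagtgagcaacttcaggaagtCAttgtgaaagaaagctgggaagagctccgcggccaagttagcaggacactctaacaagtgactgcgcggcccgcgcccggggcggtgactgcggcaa
TFDP2, chr3:142028577-142028876, reverse strand: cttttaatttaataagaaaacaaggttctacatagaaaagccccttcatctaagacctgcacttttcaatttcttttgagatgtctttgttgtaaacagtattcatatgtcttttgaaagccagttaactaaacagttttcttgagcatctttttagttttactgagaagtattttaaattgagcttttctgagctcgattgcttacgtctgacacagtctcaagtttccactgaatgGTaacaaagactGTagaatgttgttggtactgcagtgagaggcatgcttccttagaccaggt
RNF220, chr1:44631718-44632017, forward strand: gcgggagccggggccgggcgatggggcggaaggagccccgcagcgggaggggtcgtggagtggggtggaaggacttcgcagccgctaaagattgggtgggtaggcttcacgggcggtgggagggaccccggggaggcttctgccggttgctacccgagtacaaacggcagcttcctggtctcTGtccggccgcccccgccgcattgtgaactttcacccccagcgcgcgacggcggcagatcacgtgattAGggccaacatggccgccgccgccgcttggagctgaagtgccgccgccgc
SLC39A10, chr2:195656708-195657007, forward strand: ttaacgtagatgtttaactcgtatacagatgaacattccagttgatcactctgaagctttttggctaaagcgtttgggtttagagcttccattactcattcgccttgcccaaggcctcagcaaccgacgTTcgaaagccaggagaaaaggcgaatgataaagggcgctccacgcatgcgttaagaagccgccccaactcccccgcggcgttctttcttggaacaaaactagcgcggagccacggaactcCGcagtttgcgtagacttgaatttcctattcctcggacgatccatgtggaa
SLC3A2, chr11:62881449-62881748, forward strand: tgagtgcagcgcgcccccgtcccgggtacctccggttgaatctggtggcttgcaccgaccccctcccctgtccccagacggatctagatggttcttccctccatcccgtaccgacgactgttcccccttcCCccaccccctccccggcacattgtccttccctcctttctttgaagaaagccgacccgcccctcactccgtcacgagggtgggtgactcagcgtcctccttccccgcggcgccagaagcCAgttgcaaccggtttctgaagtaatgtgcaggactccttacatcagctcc
PRDM11, chr11:45180786-45181085, forward strand: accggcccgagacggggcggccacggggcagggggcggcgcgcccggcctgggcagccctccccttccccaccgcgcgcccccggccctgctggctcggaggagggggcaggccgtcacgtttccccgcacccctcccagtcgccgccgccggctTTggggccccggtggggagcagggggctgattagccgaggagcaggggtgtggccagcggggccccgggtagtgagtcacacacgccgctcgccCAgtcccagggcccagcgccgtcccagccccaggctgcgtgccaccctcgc
PTPRA, chr20:2873231-2873530, forward strand: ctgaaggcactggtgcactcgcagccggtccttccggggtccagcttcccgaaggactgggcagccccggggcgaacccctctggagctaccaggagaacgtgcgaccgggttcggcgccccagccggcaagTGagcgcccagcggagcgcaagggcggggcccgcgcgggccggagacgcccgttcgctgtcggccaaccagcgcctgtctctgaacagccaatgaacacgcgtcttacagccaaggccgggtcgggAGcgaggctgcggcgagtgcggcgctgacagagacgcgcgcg

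In the RUNX1 window the sense call lay 5 bases downstream of the annotated start and the antisense call 188 bases upstream of it. In IKZF1 the sense call lay 48 bases upstream and the antisense call 116 bases upstream. In TFDP2 both calls lay within 11 bases of each other, and this window had a GC content of 35.3% with 2 CpG, against 72.0% with 40 CpG in RUNX1. The sense calls of SLC39A10, SLC3A2 and PRDM11 lay 1 base before the annotated start, and the RNF220 call lay on it. The antisense calls of the 8 windows lay 11 to 188 bases upstream of the annotated start.

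The bases at the calls could be read for the 101 cluster calls that fell in such windows. Transcription by RNA polymerase II commonly begins at the purine of a pyrimidine and purine step, most often the A of CA. The called base and the next base downstream read CA at 42 of the 101 calls (41.6%, 32.5 to 51.3), against 42.4% of 752 calls of smaller groups and 36.9% of 10230 calls near gene ends. The base before the call and the called base read CA at 4 of the 101 calls (3.96%). The called base was C at 54.5% and T at 1.98% of cluster calls, and the following base was A at 53.5%. Cluster calls thus had the base pattern of the other calls, with C under the call and A after it. Whether the deposited position is the first transcribed base or the base before it was not tested, and the look at these bases was chosen after the data were seen.

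The 53 windows with a matching cluster call had a median GC content of 67.3% (quartiles 61.3 to 73.7) and a median of 29 CpG. The 463 windows matched by calls of smaller groups had 66.7% and 27 CpG, and all 34789 windows of the table had 58.7% and 14 CpG. Both medians of the clusters' windows lay above those of the table as a whole, as did those of the smaller groups. Motifs were searched as plain letters on both strands. GGGCGG, the core of the GC box, was in 41 of 53 windows (77.4%) beside 73.7% of the windows of smaller groups and 44.9% of all windows. TATAAA was in 1 (1.89%) beside 2.16% and 11.6%. The window with TATAAA was that of a KCNH2 transcript start. CCAAT was in 16 (30.2%) beside 38.2% in smaller groups and 34.6% of all windows, and TTCCGG, found in ETS sites, in 9 (17.0%) beside 25.1% and 17.2%. AGATAA, a letter string of GATA sites, was in 4 (7.55%) beside 5.83% and 10.4%, namely CTDSP1, DNAJB4, GSE1 and ZMYND11.

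Clusters were mostly small: 105 held 5 or 6 calls, 40 held 7 to 9 and 8 held 10 to 15, these 8 with 95 calls in all. The span from the first to the last call ran from 727 to 19024 bp with a median of 4947 bp and quartiles of 1742 and 9708 bp. Spans of up to 1 kb were found in 9 clusters, of over 1 to 2 kb in 34, of over 2 to 3 kb in 17 and of over 3 to 4 kb in 11. Longer spans were found in 13 clusters of over 4 to 6 kb, 17 of over 6 to 8 kb, 18 of over 8 to 10 kb and 34 of over 10 to 20 kb. A limit of 3 kb, chosen after the spans were seen, is used to speak of 60 compact and 93 spread clusters. The 5 shortest clusters, 727 to 897 bp long, lay in SOS1, PRDM11, SLC3A2 and PTPRA and near GLDC. The 5 longest, 16094 to 19024 bp, lay in KLF16 and TANC1 and near ID2, CBX8 and ODF1. All calls of 111 clusters lay inside genes, 16 clusters were partly inside and 26 were outside. The median span was 3087 bp for clusters inside genes and 8690.5 bp for those outside.

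**Figure D1:**
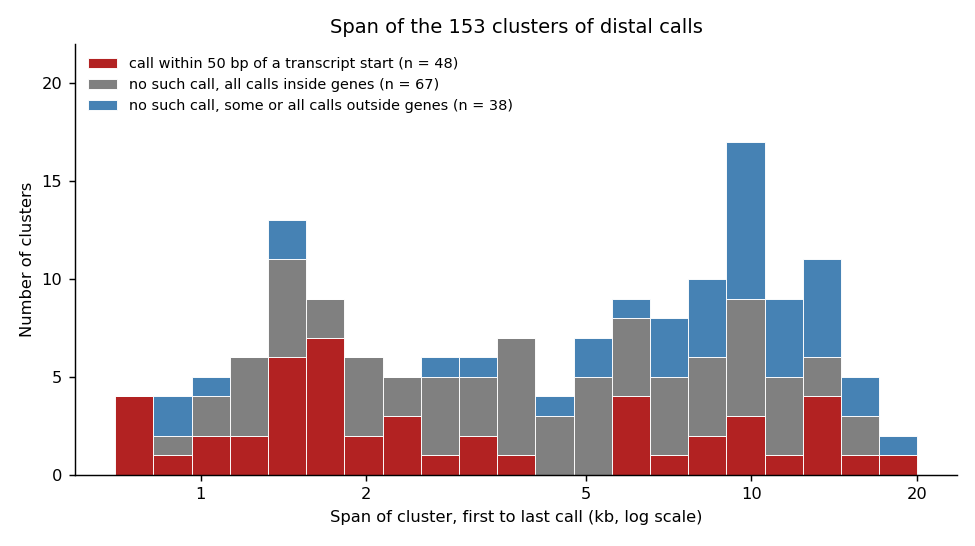
Number of clusters (vertical axis) by span from first to last call in kb on a log scale (horizontal axis), stacked by whether a call lies within 50 bp of an annotated transcript start of its strand and by place. All clusters of the shortest bin have such a call and 29 of the 48 clusters at such starts span at most 3 kb, while clusters with calls outside genes lie mostly at 5 kb and above.

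At the edges of the rule, 73 clusters held exactly 5 calls and 164 groups just outside held 4. The longest gap inside a cluster was 9805 bp and 8 clusters had a gap over 9000 bp, while 6 gaps beside clusters measured 10017 to 11000 bp. The call closest to a gene end lay 1005 bp from it, and 20 of 957 calls lay within 1100 bp. In 19 clusters the span also covered calls near gene ends, 56 in all, which are not members.

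Divergent partners had a similar share in clusters and in groups of 2 to 4 calls, and convergent partners a higher one in clusters. A divergent pair is a reverse call followed by a forward call at most 300 bp higher, and a convergent pair is a forward call followed by a reverse call at most 300 bp higher. In clusters 397 of 957 calls (41.5%, 38.4 to 44.6) had a divergent partner, beside 1467 of 3269 calls in groups of 2 to 4 (44.9%, 43.2 to 46.6) and 29.3% of all distal calls. A convergent partner was present for 181 of 957 calls (18.9%, 16.6 to 21.5) in clusters and 10.4% (9.43 to 11.5) in groups of 2 to 4. A call in a cluster has more calls around it by the rule itself, so these shares carry no test. Calls of neither kind made up 46.7% of the cluster calls. With a partner distance of 150 bp the divergent share was 24.8%, and with 500 bp it was 50.3%.

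The 198 divergent pairs within clusters had a median distance of 130.5 bp (quartiles 83.5 to 183), and the 723 pairs of smaller groups 149 bp (102 to 206). The 89 convergent pairs had a median distance of 185 bp. No divergent pair was found in 27 clusters, 1 in 65, 2 in 51, 3 in 9 and 4 in 1. No cluster had all calls on 1 strand, and 18 had a single call on the rarer strand. Strands alternated from call to call in 30 clusters, and 18 of these began with a reverse call. Calls of 1 strand were at least 251 bp apart within clusters. Neighbours closer than this were thus always on opposite strands, and alternation over short gaps is no separate result. Of the cluster calls 51.0% (47.8 to 54.1) were forward. Among 583 calls in genes of 1 known strand 273 (46.8%, 42.8 to 50.9) ran in the sense of the gene.

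**Figure D2:**
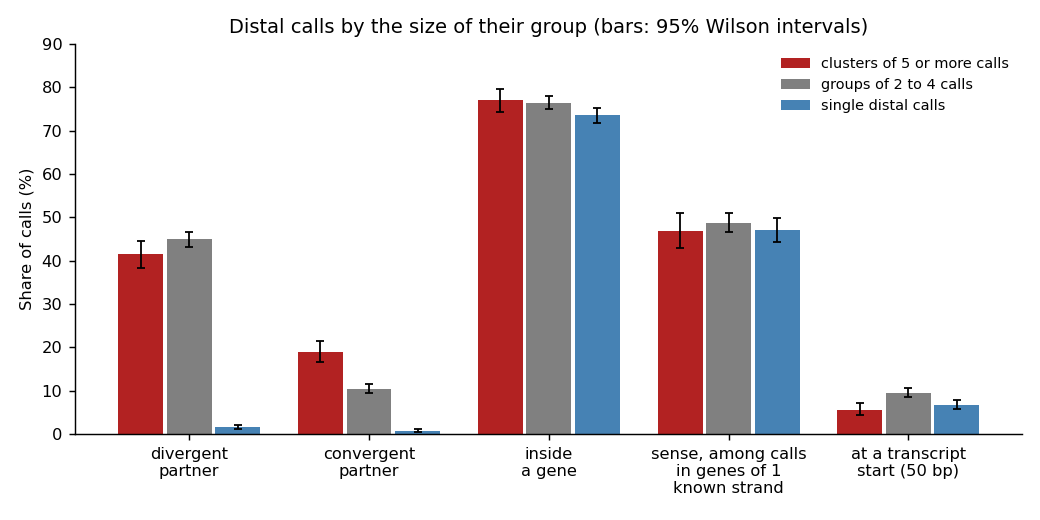
Share of calls in percent (vertical axis) with each of 5 features (horizontal axis), for clusters, groups of 2 to 4 calls and single distal calls, with bars for 95% Wilson intervals. Clusters had 41.5% of calls with a divergent partner beside 44.9% in groups of 2 to 4, 18.9% beside 10.4% with a convergent partner, and 5.54% beside 9.51% at a transcript start.

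Annotated transcript starts inside genes coincided with a call in 48 of 153 clusters (31.4%, 24.6 to 39.1), where a call lay within 50 bp of a start of its own strand. The same held for 292 of 1311 groups of 2 to 4 calls (22.3%) and for 492 of all 3714 groups (13.2%). Counted by call, the share was 53 of 957 (5.54%, 4.26 to 7.17) in clusters and 463 of 5519 (8.39%, 7.69 to 9.15) in the smaller groups. Over all distal calls it was 7.97%. The share per cluster and the share per call ran in opposite directions. A cluster has more calls that can match, which bears on the share per cluster only. Per call the share was 6.76% for single distal calls and 9.51% in groups of 2 to 4, and the reason for the lower share in clusters was not tested. Of the 53 matched calls 32 lay within 10 bp and 23 within 1 bp of the start, and their median offset was 0. A divergent partner was present at 32 of them, at a median of 139.5 bp. The matched clusters had a median span of 2171 bp and the other 105 one of 5895 bp. Compact clusters made up 29 of 48 matched clusters (60.4%, 46.3 to 73.0) and 31 of 105 others (29.5%, 21.6 to 38.8). The starts used here lie on chromosomes other than 8, and without the 12 clusters of chromosome 8 the count was 48 of 141. The 50 bp limit was chosen after the data were seen, and a limit of 10 bp gave 30 clusters.

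**Figure D3:**
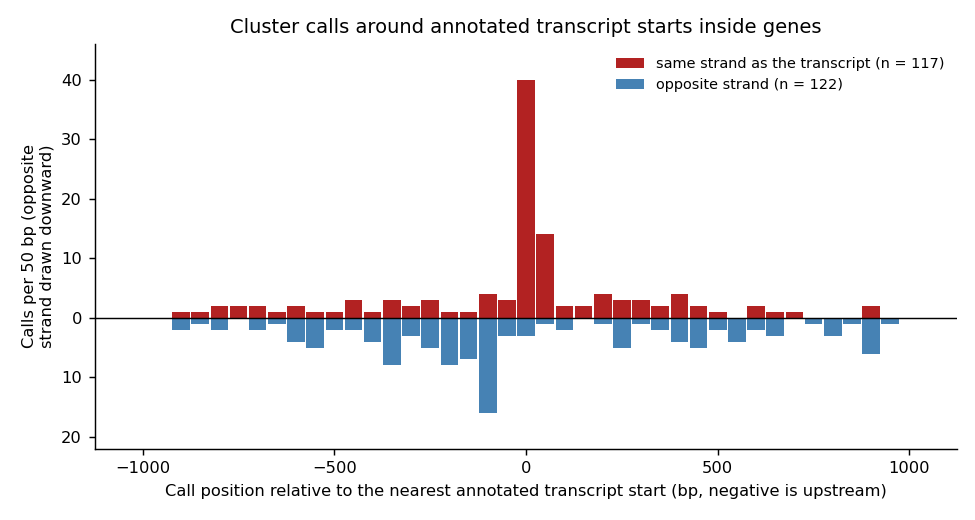
Number of cluster calls per 50 bp (vertical axis, opposite strand drawn downward) by distance in bp from the nearest annotated transcript start within 1000 bp (horizontal axis, negative is upstream). The bin centred on the start holds 40 of 117 same-strand calls, and the fullest bin of the 122 opposite-strand calls, with 16, is centred 100 bp upstream.

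Compact clusters held up to 9 calls of both strands within 3 kb and showed no single order of strands. RBPJ, which encodes the DNA-binding effector of Notch signalling, held 9 calls within 1742 bp of chromosome 4, forward at 26319510, 26319789, 26320141, 26320412 and 26320806 and reverse at 26319543, 26320453, 26320877 and 26321252. Only 1 of its pairs was divergent, at 246 bp, and 3 were convergent, and the call at 26319789 lay 43 bp downstream of a transcript start. SIN3A, the scaffold of a histone deacetylase complex, held 9 calls within 2993 bp of chromosome 15, of which 6 were forward and antisense to the gene. Its sense call at 75451708 lay 18 bp upstream of a transcript start, and its divergent pairs measured 145 and 14 bp. HSP90AA1, the inducible form of the HSP90 chaperone, held 8 calls within 1731 bp of chromosome 14. The first of these, a reverse call at 102087045, lay 1 bp before a transcript start and had a forward partner 284 bp away, and a second divergent pair at 102087588 and 102087612 measured 24 bp.

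Clusters of the same size differed in strand. ANP32A, which encodes a nuclear phosphoprotein, held 6 forward and 2 reverse calls within 1660 bp of chromosome 15, with 1 divergent and 2 convergent pairs. APC2, a relative of the tumour suppressor APC, held 4 calls of each strand within 1453 bp of chromosome 19, with divergent pairs of 21 and 43 bp. TGFBR3L, a gene of the TGF-beta receptor type III family, held 8 calls within 2103 bp of the same chromosome, its neighbours MAP2K7 and SNAPC2 lying 1.42 and 2.33 kb away, both with called starts. NCOA2, a coactivator of nuclear receptors, held 8 calls within 2125 bp, 4 of each strand, with 2 convergent pairs and no divergent pair. VPS26C, a subunit of an endosomal sorting complex, held 7 strictly alternating calls within 1027 bp of chromosome 21, with 3 divergent pairs of 19, 40 and 93 bp.

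SLC39A10 held 7 calls within 1482 bp of chromosome 2, with 3 divergent pairs of 119, 80 and 171 bp. Its forward calls at 195656957 and 195657226 both lay within 1 bp of an annotated start, the first of them the start in the window shown above. ELF2, an ETS factor, held 7 calls within 1705 bp of chromosome 4, and its reverse call at 139084196 lay 28 bp downstream of a start with a forward partner 81 bp away. KDM4C, a histone demethylase, held 7 calls within 1805 bp of chromosome 9 with divergent pairs of 125 and 177 bp. None of its calls lay within 50 bp of an annotated start of its strand, but the forward call at 6758044 lay 71 bp downstream of one. NPTX1, a neuronal pentraxin, was the nearest coding gene, 9.25 kb away, of a cluster of 2 forward and 5 reverse calls within 2926 bp of chromosome 17.

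**Figure D4:**
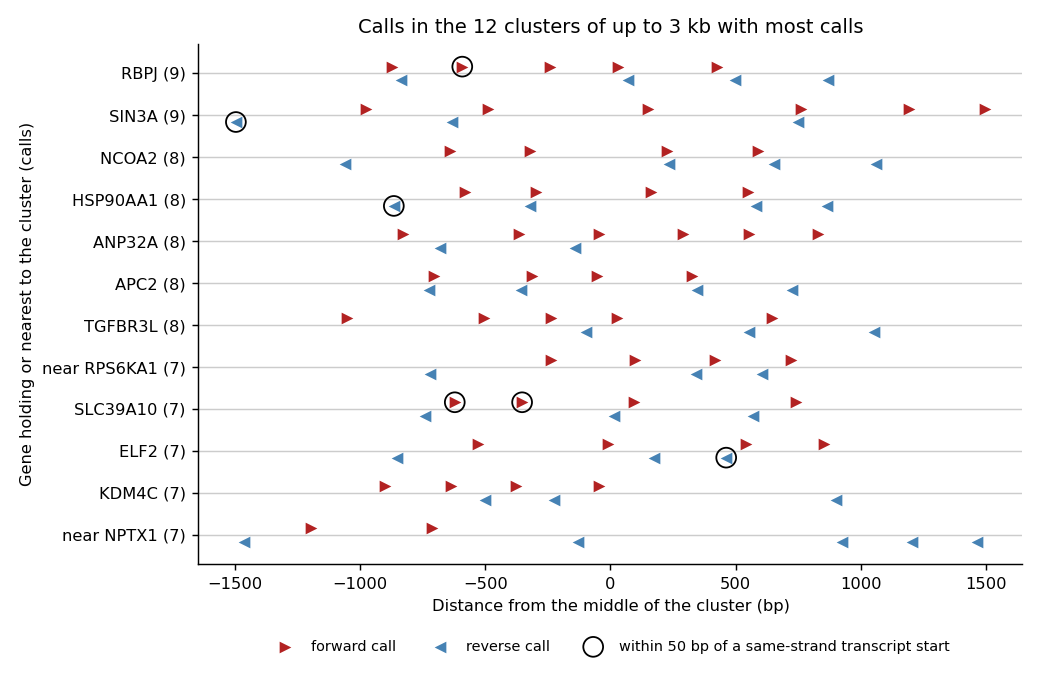
Positions of all calls in the 12 clusters of up to 3 kb with most calls, in bp from the middle of the cluster (horizontal axis), 1 line per cluster with the number of calls in brackets. Right-pointing marks are forward and left-pointing marks reverse calls, and rings mark the 6 calls within 50 bp of an annotated start of their strand, found in RBPJ, SIN3A, HSP90AA1, SLC39A10 and ELF2.

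Divergent pairs could also follow each other without a break, though neighbours under 251 bp apart were on opposite strands by the spacing of the calls. All calls were in divergent pairs in 4 clusters, each with 3 pairs in the order reverse, forward, reverse, forward, reverse, forward. In CDC14A, a phosphatase gene on chromosome 1, the pairs lay at 100351323 and 100351393, 100351645 and 100351798, and 100352210 and 100352506, and the last forward call was on an annotated start. In HDGF, a growth factor gene on the same chromosome, the pairs measured 129, 157 and 262 bp within 2510 bp, and the reverse call at 156751668 lay 7 bp downstream of an annotated start. In RHBDD1, a rhomboid protease gene on chromosome 2, pairs of 115, 210 and 73 bp followed each other within 958 bp. Between GLDC and KDM4C on chromosome 9, 35.1 and 39.1 kb from those genes, pairs of 170, 178 and 115 bp lay within 897 bp outside any gene. The longest gap there was 222 bp, so that the spacing fixed the alternation of strands. RNF220, with pairs of 67, 127 and 231 bp within 6439 bp, had 1 further call.

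In all, 29 clusters of 5 or 6 calls held 2 or 3 divergent pairs. SOS1, the exchange factor that activates RAS, held pairs of 49 and 54 bp within 727 bp of chromosome 2, and its reverse call at 39121027 lay 24 bp downstream of a start. DYRK1A, a kinase gene, held pairs of 189 and 8 bp on chromosome 21, and its forward call at 37366776 lay 3 bp downstream of a start. ARID1B, a subunit of the BAF remodelling complex, held pairs of 69 and 130 bp within 1110 bp of chromosome 6. HDAC4, a histone deacetylase gene, held pairs of 57 and 252 bp within 11505 bp of chromosome 2. PPM1A, a phosphatase gene, held pairs of 151 and 243 bp within 1759 bp of chromosome 14, with a forward call on a start. HOOK2 held pairs of 165 and 298 bp on chromosome 19, and its cluster ended 1.34 kb from JUNB, an immediate early gene with a called start. PRDM11, SLC3A2 and PTPRA held 2 divergent pairs each within 755, 803 and 808 bp. The same was found in FAAP20, C1orf116, ZSCAN31, KAZALD1, CACNA2D4, DLGAP1 and the noncoding genes LINC01588 and MIR99AHG, with spans of 1138 to 10141 bp.

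Several spread clusters inside genes consisted of tight groups with long gaps between them. NOS3, the endothelial nitric oxide synthase gene, and ATG9B together held 9 calls on chromosome 7, 4 of them in NOS3 from 151008283 to 151009121 and 5 in ATG9B from 151018000 to 151018949, with a divergent pair in each group of 158 and 82 bp. Neither gene had a called start. PDE4A, a cAMP phosphodiesterase gene on chromosome 19, held 9 calls over 13230 bp with no called start at its ends, and 2 of them, at 10420551 and 10430826, lay 13 bp downstream and 19 bp upstream of annotated starts. RREB1, a zinc finger factor downstream of RAS, held 8 calls over 8621 bp of chromosome 6, 5 of them sense, with divergent pairs of 225 and 131 bp and a called start of the gene. GAD1, the enzyme that makes the transmitter GABA, held 8 calls over 6591 bp of chromosome 2 with pairs of 239 and 257 bp and had no called start. SSBP4, of a family that binds LDB adaptor proteins, held 8 calls over 3880 bp of chromosome 19 with pairs of 146 and 170 bp.

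CRYBG1 held 9 calls over 9305 bp of chromosome 6 with divergent pairs of 216 and 83 bp and 2 convergent pairs. ZFAT, a zinc finger gene, held 9 calls over 8470 bp, 8 of them at the lower end of the cluster, with pairs of 97 and 201 bp. ESRRG, an orphan nuclear receptor gene, held 7 calls over 10009 bp of chromosome 1, 5 of them antisense, and its reverse call at 216723467 lay 38 bp upstream of a start. Of the other clusters of 7 calls, those in FAM78A, UBAC1, GALNT5 and SETD1B held 1 or 2 divergent pairs. At KLF9, a Krüppel-like factor gene, 1 of 7 calls lay in the gene and 6, with divergent pairs of 127 and 240 bp, in its divergent transcript KLF9-DT. At IGF2BP3, the gene of a fetal mRNA-binding protein, 1 of 7 calls over 5403 bp lay in the gene and 6 in no gene, with no divergent pair.

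**Figure D5:**
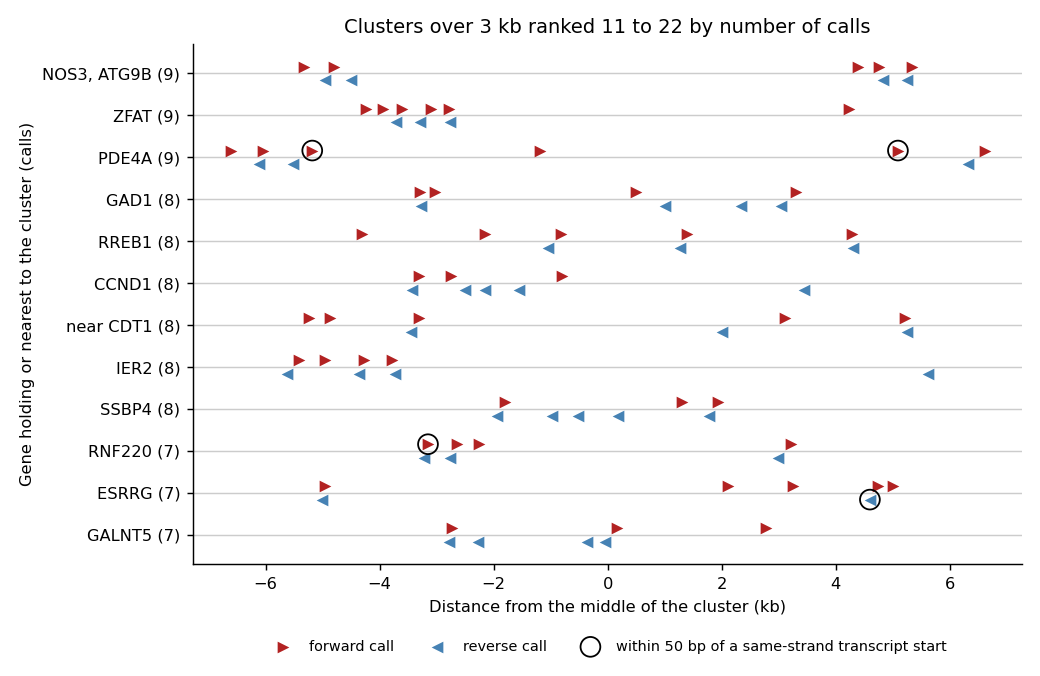
Positions of all calls in the clusters over 3 kb ranked 11 to 22 by number of calls, in kb from the middle of the cluster (horizontal axis), 1 line per cluster with the number of calls in brackets. Right-pointing marks are forward and left-pointing marks reverse calls. The calls of NOS3 and ATG9B form 2 groups of 4 and 5 with a gap of 8879 bp. At IER2, 7 of the 8 calls lie at the lower end of the cluster.

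Clusters outside genes lay at 1.37 to 156 kb from the nearest protein-coding gene, with a median of 19.7 kb, and 13 of the 26 lay within 20 kb. In these clusters 48.8% of calls had a divergent partner, beside 41.3% in clusters inside genes and 32.5% in clusters partly inside. Between PIEZO1, the mechanically gated channel of red cells 6.71 kb away, and CDT1, a replication licensing factor 1.37 kb away, 8 calls spread over 10491 bp of chromosome 16, and both genes had called starts. Calls there were forward at 88791930, 88792300, 88793865, 88800280 and 88802400 and reverse at 88793723, 88799188 and 88802421. DNAJB12, a co-chaperone gene 6.08 kb away, and DDIT4, a stress-induced inhibitor of mTOR 41.0 kb away, flanked 7 calls over 9708 bp of chromosome 10 with divergent pairs of 65 and 100 bp. Near PTMA, which encodes prothymosin alpha, 7 calls lay over 12694 bp at 33.5 kb with pairs of 148 and 200 bp. Near ASH2L, a subunit of histone methyltransferase complexes, 7 calls lay over 10304 bp at 13.7 kb with pairs of 130 and 180 bp.

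Of the 26 clusters outside genes 6 were compact and 20 spread. Near RPS6KA1, a ribosomal S6 kinase gene, 7 calls lay within 1442 bp of chromosome 1 at 45.2 kb, with divergent pairs of 76 and 117 bp. On the other side of the same gene 5 calls lay within 991 bp, 23.7 kb from HMGN2 and 28.4 kb from RPS6KA1, with pairs of 88 and 55 bp. Between OR10G7, an olfactory receptor gene without a called start, and VWA5A, 7 calls lay within 4552 bp of chromosome 11 at 34.6 and 35.0 kb, with pairs of 79 and 151 bp. Near CDKN2AIPNL 5 alternating calls lay within 917 bp of chromosome 5 at 54.1 kb. The cluster near JARID2, a subunit of Polycomb repressive complex 2, was the farthest from its gene at 156 kb, with pairs of 92 and 127 bp. Clusters with 2 divergent pairs also lay near ITGB1, CALB1 and BCORL1.

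In all, 14 clusters held neither a divergent nor a convergent pair, and 12 of these exceeded 3 kb, beside 93 of all 153 clusters. A pair needs 2 calls at most 300 bp apart, so span and pairs are linked by definition and this is no separate result. CFLAR, an inhibitor of caspase 8, held 5 forward sense calls and 1 reverse call over 9037 bp of chromosome 2, with the first call 26 bp upstream of a start. ZMYND11, a reader of methylated histone H3.3, held 2 forward and 4 reverse calls within 1872 bp of chromosome 10, its first call 1 bp before a start. HNRNPH1, a splicing factor gene, held 1 forward and 4 reverse calls within 1301 bp of chromosome 5, with the first 2 bp downstream of a start. TNS3, FADS2 and HIVEP1 held 5 calls each over 12895, 6901 and 3559 bp. ZFP36L2, BCL11A, DMTN and LMO2, which are in the gene lists below, were among the first 10 of these clusters by position. TGIF1, a repressor of TGF-beta signalling, held 7 calls over 13309 bp of chromosome 18 with no pair inside the cluster, although its reverse call at 3449651 had a forward partner 89 bp away that was not distal.

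Genes of erythroid regulators were among those at clusters. Of 34 listed erythroid transcription factors and cofactors 9 (26.5%) held or were nearest to a cluster, beside 151 of 19821 protein-coding genes (0.762%), where a gene with at least 1 call of a cluster counts as holding it. Of the 9 factors 7 were at clusters of exactly 5 calls, the least the rule allows, and with at least 6 calls 2 of 34 (5.88%) remained, KLF3 and TCF3, beside 81 coding genes (0.409%). Longer genes can hold more calls, and the median length of the 34 was 40.6 kb against 24.5 kb for all coding genes. Among those that held any distal call, 7 of 22 listed factors held a cluster, beside 120 of 2286 coding genes. The lists and the clusters were both chosen with results of these data known, so that no test is given. The other lists had 1 of 28 genes for haem synthesis and iron, 2 of 41 for red cell membrane and blood groups, 4 of 45 for other erythroid genes, 5 of 38 for growth and signalling and 2 of 13 for stem and progenitor cells. GATA2 is counted both among other erythroid genes and among those of stem and progenitor cells. Of 15 megakaryocyte, 19 granulocyte, monocyte and mast cell and 17 lymphoid genes, none was at a cluster. Only 3, 0 and 0 of these held any distal call. For lists of this size none is near the 0.762% of all coding genes, and it is no result about lineage.

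The clusters of the 9 factors held 5 or 6 calls and differed in form. RUNX1, a core factor of blood formation, held a compact cluster of 1604 bp on chromosome 21, with reverse calls at 34888694, 34889383 and 34889761 and forward calls at 34888887 and 34890298. Its first pair, 193 bp apart, is the one in the window shown above. IKZF1, the lymphoid and erythroid factor Ikaros, held 5 calls within 2847 bp of chromosome 7 and had no called start at its outer ends. TFDP2, the partner of E2F factors in red cell maturation, held 5 calls over 6443 bp of chromosome 3 with a divergent pair of 11 bp at an annotated start. LMO2, the bridge of the GATA1 and TAL1 complex, held 5 alternating calls over 14826 bp of chromosome 11, at 33870553, 33879542, 33881937, 33882261 and 33885379, none of them paired. NFE2, an activator of globin genes, had 5 calls over 11407 bp of chromosome 12, partly inside the gene, with 1 divergent pair of 141 bp. KLF3, a repressor related to KLF1, held 2 of 6 calls over 11205 bp of chromosome 4, and its antisense gene KLF3-AS1 held the other 4, with a pair of 118 bp. TCF3, the E protein partner of TAL1, lay 19.3 kb from 6 calls within 3376 bp of chromosome 19 that included no divergent pair. NFIA lay 20.1 kb from 5 alternating calls over 6970 bp of chromosome 1. BCL11A, a repressor of fetal globin, had 3 reverse calls inside the gene and 2 forward calls above it over 7814 bp, and 1 reverse call lay 1 bp before a start.

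Of the other listed genes, GATA2, a progenitor factor, was at 5 reverse calls and 1 forward call over 9796 bp of chromosome 3, with a divergent pair of 164 bp. GATA2 held 4 of these calls, the pair included, and the other 2 lay in GATA2-AS1 alone. CD34, the progenitor antigen, lay 7.48 kb from 5 alternating calls over 5196 bp of chromosome 1, and had no called start. ABCB10, a mitochondrial transporter needed for haem synthesis, held 5 calls within 1949 bp of chromosome 1 without a divergent pair. ANK1 and DMTN encode the membrane skeleton proteins ankyrin and dematin. ANK1 held 7 calls over 5715 bp with divergent pairs of 172 and 168 bp and 3 convergent pairs, and DMTN held 6 unpaired calls over 3087 bp. Neither had a called start at its outer ends. Upstream of HBE1 the cluster at the beta-globin locus control region, 6.005 kb from the gene, held 5 calls over 12384 bp with 2 divergent pairs of 98 and 80 bp, 1 at each end. UBAC1, a ubiquitin ligase subunit, held 5 forward and 2 reverse calls over 9784 bp of chromosome 9.

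PIM1, a kinase induced by cytokine receptors, was at 2 clusters on chromosome 6, 5 calls over 7449 bp at 59.9 kb and 7 calls over 14368 bp partly inside the gene. ID2, an inhibitor of E proteins, was at 2 clusters of 10 and 6 calls, the larger 138 kb away, and ZFP36L2, which destabilises mRNA, at 2 clusters of 5 and 6 calls. ZFP36L1, its paralogue, held 6 calls within 2077 bp of chromosome 14, and the reverse call at 68793411 lay 5 bp downstream of a start with a partner at 98 bp. IER2, an immediate early gene, had 8 calls over 11235 bp of chromosome 19 with pairs of 209 and 93 bp, 7 of them inside the gene. At CCND1, cyclin D1, 8 calls lay over 6878 bp of chromosome 11 with 1 pair of 128 bp, 1 of them inside the gene and 7 in no gene. PIM1 and these 5 genes had called starts. Clusters within 200 kb of another cluster numbered 23, and GSE1 on chromosome 16 was the gene with most, holding 3 of 5, 6 and 5 calls.

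Clusters were set against smaller groups of distal calls with Fisher's exact test, two-sided, with p-values adjusted over 3 comparisons by the Benjamini-Hochberg method. The first of these, whether all calls of a group lie inside genes, depends on the number of calls, which the rule fixed, so it is given with no test. All calls lay inside genes in 111 of 153 clusters (72.5%, 65.0 to 79.0) and in 2635 of 3561 smaller groups (74.0%). Of protein-coding genes that held at least 1 call of a cluster, 54 of 120 (45.0%, 36.4 to 53.9) had a called start, beside 1139 of 2166 genes that held smaller groups only (52.6%, 50.5 to 54.7), an odds ratio of 0.738 (p = 0.111, adjusted p = 0.333 by the exact test). With a start window of 200 bp these shares were 35.0% and 47.0% (adjusted p = 0.0329 by the exact test). Calls at a start more than 1000 bp inside a gene add to its distal group and not to a called start. Grouping and outcome are therefore linked, and no conclusion about host genes is drawn from these p-values. The median length was 54.1 kb for genes holding a cluster and 56.8 kb for the others. Genes holding a cluster at an annotated internal start had a called start in 18 of 50 cases, and genes holding only other clusters in 36 of 70. For clusters outside genes the nearest protein-coding gene had a called start in 14 of 26 cases (53.8%, 35.5 to 71.2), and for smaller groups in 489 of 873 (56.0%), an odds ratio of 0.916 (adjusted p = 0.844 by the exact test). Whether a group has no call inside a gene also depends on its number of calls, which the rule fixed. No conclusion about the nearest genes is therefore drawn from this p-value. Both adjusted p-values of the exact test, 0.333 and 0.844, lay above the threshold of 0.05 with the settings first given. Their adjustment counts the first comparison too.

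The 8 clusters of 10 or more calls all exceeded 3 kb. At CDKN2C, an inhibitor of cyclin-dependent kinases, 15 calls lay over 11637 bp with 3 divergent pairs, 7 of them inside the gene and 8 in no gene, and 14 calls over 16199 bp lay near the Polycomb gene CBX8, with 3 pairs of 280, 113 and 8 bp. KCNH2, a potassium channel gene, held 13 calls over 8120 bp, 2 of them at annotated starts. KLF16 held 11 calls over 19024 bp, the longest span. LTBP4, a latent TGF-beta binding protein gene, held 2 forward and 8 reverse calls, the first forward call 22 bp upstream of a start. At MIR23AHG, the host of 3 miRNAs, 12 calls over 11495 bp held 4 divergent pairs of 64, 81, 259 and 81 bp. Of these calls 8, with the first 3 pairs, lay inside the gene, and the other 4, with the last pair, lay in no gene. The cluster over SLC11A1 and CTDSP1, 10 calls over 13552 bp, surrounded the miRNA gene MIR26B in CTDSP1, with calls at 218400937 and 218407152 on its sides. The mature miRNAs of both hosts, from RefSeq, are shown with the seed, bases 2 to 8, in capitals, and the 4 seeds differ.
hsa-miR-23a-3p: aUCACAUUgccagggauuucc
hsa-miR-27a-3p: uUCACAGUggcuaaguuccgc
hsa-miR-24-3p: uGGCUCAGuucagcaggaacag
hsa-miR-26b-5p: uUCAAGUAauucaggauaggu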

How the data were processed

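Nascent RNA starts were mapped by PRO-cap in the untreated wild-type line, with 2 replicates per the labels. BWA 0.7.16a and Picard are recorded in the submitters' processing notes, with no role stated. The same notes list SAMtools 1.17, deepTools 3.5.4 and, as the build, hg38. How the calls were thresholded and the replicates combined is not given in the sources consulted. The authors deposited 1 list per strand whose position columns are other values, coordinates of single bases. The deposited score is 0 for every call, so that no strength or depth was used. Analysis used the 26332 calls on chromosomes 1 to 22 and X.

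Gene ends came from 58419 RefSeq genes of GRCh38.p14, 19821 of them protein-coding. Strand and 34961 transcript starts came from the RefSeq promoter table, which gave a strand for 27197 of these genes. Calls in genes without a known strand have no sense or antisense value. Clusters, pairs and called starts follow the definitions in the text. A group was inside genes when all its calls were. Shares have 95% Wilson intervals. Groups of calls come from 1 call set, so the tests measure counting error only, not the spread between replicates.

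The members, gene lists and alternatives were chosen with earlier results of these data known. The 50 bp match, the 3 kb limit and the base and motif counts were added after the data were seen. Named are the genes that hold, or else lie nearest to, clusters of 7 or more calls, clusters of 5 or 6 calls with 2 or more divergent pairs, clusters at listed genes, clusters on 1 strand, the 5 shortest and 5 longest clusters, and the first 10 clusters without a pair. Some genes that this rule names are not reported here. The genes of windows and miRNAs shown, and genes named as flanks, were chosen after their values were seen. The steps were tested on simulated data. Python 3.11.15, pandas 2.3.3, scipy 1.17.1 and statsmodels 0.14.6 were used.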

Additional observations from a re-analysis of the deposited data

Results flagged for a closer look

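Outside the chromosomes analysed, 35 calls lay on alternate or unplaced sequences, a signal in data that no comparison above used. They were spread over 20 sequences. Joined under the same 10 kb rule, the largest group on any of these sequences held 3 calls, so that none reached the size of a cluster. Calls on chromosome Y numbered 24 and on the mitochondrial genome 4.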

How the results depend on the processing

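The count of clusters rests on the rule: 153 clusters with 957 calls became 317 with 1613 at 4 calls or more, 80 with 592 at 6 or more, 246 with 1602 when only protein-coding gene ends counted, and 45 with 351 when calls within 300 bp were counted as 1 site and 5 sites were asked for. Joining distances of 5 and 20 kb and a distal limit of 2000 bp kept it within 1.5 times. The share of calls with a divergent partner, 41.5%, was 28.8% under the rule of 5 sites, 24.8% with a partner distance of 150 bp and 50.3% with 500 bp. Listed genes at clusters, 22, fell to 10 with 5 sites, 12 with 6 calls and 14 with the distal limit of 2000 bp. Erythroid factors at clusters, 9, fell to 2 with 6 calls, an alternative added later. Clusters at transcript starts, 48, fell to 30 with a 10 bp match. The odds ratio for lying inside genes, 0.929, a value that depends on group size, turned above 1 with 1 call inside sufficing (1.59), the distal limit of 2000 bp (1.19), a 5 kb joining distance (1.37), protein-coding genes only for the inside count (1.08) and without the 10 largest clusters (1.01, an alternative added later), and was 0.592 with protein-coding gene ends only. The odds ratio for the called start of the nearest coding gene, 0.916, turned above 1 at 4 calls (1.40), 6 calls (1.05), 5 sites (1.98) and a start window of 200 bp (1.09), none past the threshold. For host genes, where grouping and outcome are linked as stated above, it passed in 1 of 10 alternatives, the 200 bp window (0.606). Its direction was the same in all 10. The cause of these changes was not tested. Depth and the threshold of the calls are unknown, and a stretch without calls can be transcribed below it. No paired analysis was possible because the deposited lists hold no value per replicate.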

Other observations

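The share of distal calls that fell in clusters differed by chromosome. It was highest on chromosomes 8, 2 and 21, with 24.1% of 307, 24.0% of 495 and 23.2% of 95 distal calls. Chromosome 13 had no cluster among 146 distal calls, chromosome 22 had 2.86% of 175 and chromosome 5 had 4.03% of 248. Chromosome 19, with 548 distal calls, had 14 clusters and a share of 19.3%. These shares were not tested.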
